A study of Mus musculus with 24 samples.

Results

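Cells that copy their DNA need a supply of the deoxynucleotides it is built from. The 9 genes described here encode enzymes of that supply: Rrm1, Rrm2, Rrm2b, Tyms, Dut, Tk1, Dck, Cad and Umps. They were taken by symbol from the deposited tables, and all 9 were found among 27180 rows and passed the filter on low counts in each fit. Transcripts were counted by RNA sequencing in mouse skin, with 3 libraries in each of 8 groups. The groups were skin grafts at day 28 and day 14 after grafting from donors labelled CD1dKOxK14E7 (CD1dKOxE7 here), K14E7 (E7) and C57BL/6 (C57), and whole ear skin of E7 and C57 mice 8 weeks old. Every graft came from ear skin and was carried by a C57BL/6 recipient, and the labels give C57BL/6 as the strain of the E7 mice too. K14E7 mice express the E7 oncoprotein of human papillomavirus 16 under the keratin 14 promoter, which is active in basal keratinocytes and in basal cells of hair follicles and sebaceous glands, and not in the dermis. CD1d presents lipids to natural killer T cells, and only the donor skin, not the recipient, carried the CD1dKO label. The labels do not say whether libraries of a group came from separate animals, so that p-values measure the spread between libraries, which may be technical.

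Library totals were 6550011 to 13814448 counts, and a member had 50 to 3120 counts in a library. Ear libraries were on another flow cell than grafts, and grafts labelled CD1dKOxE7 on another lane than the other grafts, so that tissue and flow cell, or CD1dKO donor and lane, cannot be told apart. Levels are in CPM, read counts relative to library totals scaled alike in the 24 libraries. E7 transcript was at 17.6 CPM or more in every library labelled E7, against 0.135 CPM or less in C57 libraries. Cd1d1, the gene of CD1d, had 5.34, 4.44 and 14.7 CPM in day 28 grafts labelled CD1dKOxE7, against 25.8, 21.4 and 23.1 CPM in E7 grafts. At day 14 it had 13.6, 17.3 and 11.4 CPM in grafts labelled CD1dKOxE7, against 15.2, 14.3 and 16.8 CPM in E7 grafts. No source used here gives the deleted part of Cd1d1, so these counts do not check the label. Replicate 3 of the day 28 grafts labelled CD1dKOxE7 stood apart, with 18.8 CPM of E7 against 44.1 and 44.4 CPM in replicates 1 and 2. It differed from them in markers too: T cell markers summed to 180.6 CPM, against 83.7 and 77.1 CPM, macrophage markers to 2189 CPM, against 908 and 1143 CPM, and suprabasal keratinocyte markers to 21700 CPM, against 40562 and 44997 CPM. Results that rest on it are given with and without it. Basal keratinocyte markers (6 genes, Krt14 among them) summed to 9409 CPM or more in every library, as a skin label requires.

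Ribonucleotide reductase turns ribonucleotides into deoxyribonucleotides and is the step that commits them to DNA. Its large subunit is Rrm1, its S-phase small subunit is Rrm2, and Rrm2b is an alternative small subunit, a p53 target that supplies DNA repair and mitochondrial DNA in cells that do not divide. Dut removes dUTP and yields the dUMP that thymidylate synthase (Tyms) methylates to dTMP, while thymidine kinase 1 (Tk1) and deoxycytidine kinase (Dck) salvage nucleosides. Cad carries the first steps of pyrimidine synthesis and Umps the last steps to UMP, which serve RNA as well as DNA. In general, Rrm1, Rrm2, Tyms, Dut and Tk1 are targets of E2F factors, which the E7 protein releases from the retinoblastoma protein.

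In GRCm38 (mm10) Rrm1 is at chr7:102441695-102469771, Rrm2 at chr12:24708254-24714146 and Rrm2b at chr15:37923952-37961119. Dut is at chr2:125247248-125259049, Tyms at chr5:30038546-30073645, Tk1 at chr11:117815519-117826087 and Dck at chr5:88765013-88783277. Cad is at chr5:31054620-31078479 and Umps at chr16:33954782-33967038. Of the 9 genes, 8 had a promoter entry in the RefSeq table for GRCm38.p6, which Rrm2b did not. The 150 bases before the start site are shown for the subunit genes that changed most between E7 and C57 skin (Rrm2, Rrm1), for the thymidine kinase gene Tk1, and for Umps, which changed least among those with an entry. The table's start site of Tk1 lies inside the gene span given above, so its stretch overlaps the 5′ end of that span, while the other 3 stretches end where the gene begins. Capitals mark CCAAT and the GC box GGGCGG, each searched on both strands.

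Rrm2, chr12:24708104-24708253, plus strand: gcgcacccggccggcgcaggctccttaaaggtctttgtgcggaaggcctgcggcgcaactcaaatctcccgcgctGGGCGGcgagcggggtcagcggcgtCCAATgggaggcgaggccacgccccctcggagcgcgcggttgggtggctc
Rrm1, chr7:102441545-102441694, plus strand: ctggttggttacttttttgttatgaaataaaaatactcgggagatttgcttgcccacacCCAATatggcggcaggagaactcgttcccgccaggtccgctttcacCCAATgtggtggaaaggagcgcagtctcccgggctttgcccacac
Tk1, chr11:117826015-117826164, minus strand: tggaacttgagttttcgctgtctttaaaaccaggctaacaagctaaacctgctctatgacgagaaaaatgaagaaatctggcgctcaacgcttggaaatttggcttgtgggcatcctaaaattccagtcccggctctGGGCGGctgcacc
Umps, chr16:33967039-33967188, minus strand: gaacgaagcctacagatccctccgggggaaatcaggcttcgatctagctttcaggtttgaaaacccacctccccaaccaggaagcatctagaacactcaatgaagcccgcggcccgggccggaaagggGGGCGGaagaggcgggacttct

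Within the 300-base windows of the 8 entries, CCAAT was found in Rrm1 at bases -91 and -45 from the start site and in Rrm2 at base -50, and in no other member. It was present in 37.4% of 32851 promoter windows of the same length. GGGCGG was found in 7 of the 8 entries, all but Rrm1, and in 35.7% of all windows. It stood at bases -225 and -75 in Rrm2, -13 in Tk1, -22 in Umps, -54 in Tyms, -94 in Dut, and -56 and -35 in Cad, and Dck held 6 matches. The E2F words TTTCCCGC, TTTGGCGC, TTTCGCGC and TTTGCCGC were in none of the 8 windows and in 2.3% of all windows. Only these exact words were searched, on both strands, so shorter or variant E2F words would not be found. These are descriptions of letters and not of bound sites.

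In ear skin, E7 mice had more transcript of 8 of the 9 enzymes than C57 mice, and less of Rrm2b. The ribonucleotide reductase subunits Rrm2 and Rrm1 had the largest log2 fold changes of the 9, followed by the salvage kinase Dck and thymidylate synthase, Tyms. Cad and Umps had the smallest among those that rose. All 9 genes passed the test (edgeR quasi-likelihood, Benjamini-Hochberg adjusted p below 0.05), where 65.3% of all 15720 genes tested did and 32.6% rose, so that the count itself says little. The libraries of E7 and C57 did not overlap for any of the 9, as was true of 71.1% of genes.

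Rrm2 had 214, 228 and 217 CPM in E7 ear, against 14.2, 14.7 and 18.1 CPM in C57 ear (log2 fold change 3.80 ± 0.09 SE, adjusted p = 4.88e-10). Its lowest E7 library was far above its highest C57 library. Rrm1 had 270.3, 284.7 and 296 CPM in E7 ear, against 65.5, 62.2 and 64.3 CPM in C57 ear (2.15 ± 0.06, adjusted p = 1.27e-09). The fold change of the large subunit was smaller than that of its S-phase partner. Rrm2b had 16.4, 15.5 and 18.6 CPM in E7 ear, against 28.9, 28.1 and 26.1 CPM in C57 ear, and fell (-0.72 ± 0.10, adjusted p = 6.73e-05). Ear of E7 mice also had lower summed levels of skeletal muscle markers (867 to 1335 CPM, against 2715 to 5074 CPM in C57 ear) and dermal fibroblast markers (2251 to 4398 CPM, against 7993 to 8874 CPM). Endothelial (5 of 5), adipocyte (4 of 4) and cartilage markers (3 of 3 tested) fell in E7 ear as well. All 6 suprabasal keratinocyte markers rose (summed 40422.5 to 43712.2 CPM, against 16290.0 to 19414.5 CPM in C57 ear). The part of these markers in the Rrm2b result and in the rises in ear was not tested. Numbers of cells of a type and RNA per cell cannot be told apart in these bulk samples. Of Rrm2b exon length 5.7% is shared with Gm49085 on the opposite strand, and no source used here gives the strand of the reads.

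Thymidylate enzymes rose as well. Tyms had 31.0, 29.9 and 28.4 CPM in E7 ear, against 7.85, 7.81 and 8.26 CPM in C57 ear (1.90 ± 0.10). Reads of the pseudogene Tyms-ps, counted in a row of its own, may partly belong to Tyms, and with both rows summed the difference was 1.90 ± 0.08. Dut had 32.7, 30.9 and 30.8 CPM in E7 ear, against 19.5, 16.9 and 19.8 CPM in C57 ear (0.75 ± 0.09). The fold change of Dut was smaller than that of Tyms, the next enzyme on its path. Tk1 had 39.4, 39.5 and 39.8 CPM in E7 ear, against 13.2, 15.1 and 16.9 CPM in C57 ear (1.39 ± 0.10). Dck, which makes dCMP, dAMP and dGMP from their nucleosides, had 68.1, 72.8 and 71.1 CPM in E7 ear, against 16.9, 18.6 and 19.7 CPM in C57 ear (1.94 ± 0.08). The highest adjusted p of these 4 genes was 2.81e-05, for Dut.

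Enzymes of new pyrimidine synthesis had small fold changes. Cad had 60.5, 60.1 and 56.3 CPM in E7 ear, against 43.1, 48.4 and 41.1 CPM in C57 ear (0.42 ± 0.08, adjusted p = 0.000614). Umps had 20.0, 21.9 and 22.5 CPM in E7 ear, against 18.7, 18.6 and 17.3 CPM in C57 ear (0.24 ± 0.09, adjusted p = 0.0401). The Umps call held in 1 of 6 fits that left out a library. It was also lost with upper quartile normalization, without the filter on low counts and with DESeq2, where the highest adjusted p was 0.28. Umps shares 6.1% of its exon length with Gm15829 and Tk1 5.8% with Afmid, both on the opposite strand.

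**Figure D1:**
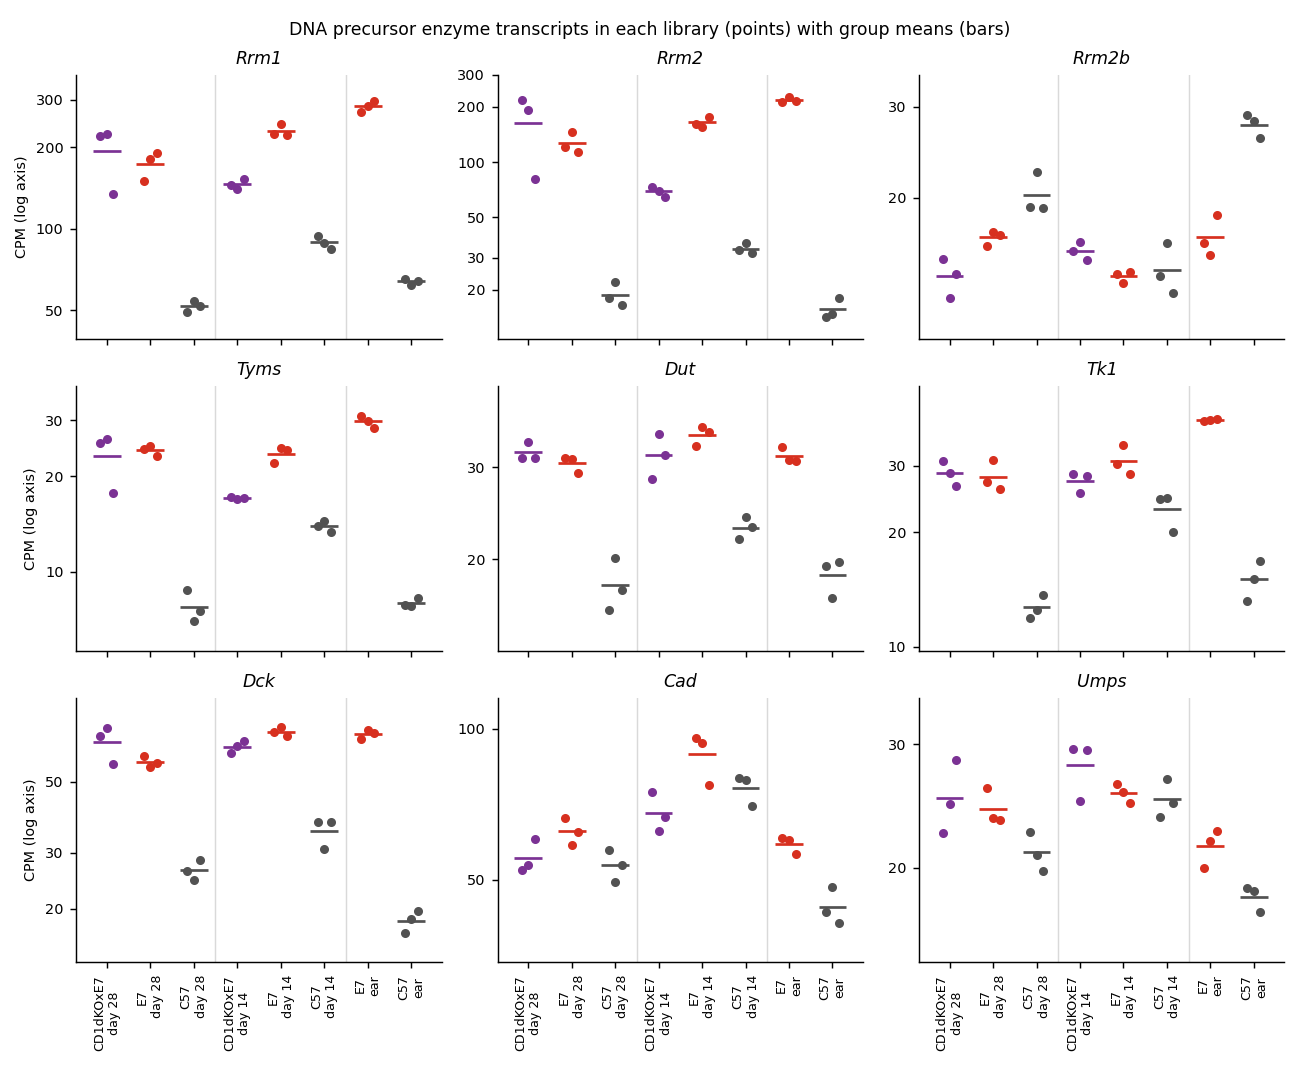
CPM (log axis) of each of the 9 genes in every library (points) with group means (bars), for grafts labelled CD1dKOxE7 (purple), E7 (red) and C57 (grey) skin at day 28, day 14 and in ear. Rrm2 stands at 214 to 228 CPM in E7 ear, against 14.2 to 18.1 CPM in C57 ear, while Rrm2b is lower in E7 ear.

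In grafts, 6 of the 9 genes rose in E7 skin at each day, and they were the same 6 genes: Rrm1, Rrm2, Tyms, Dut, Tk1 and Dck. Cad, Umps and Rrm2b did not pass the test at either day. The share of all 16189 genes called was 35.4% at day 28 (20.7% rose) and 30.2% at day 14 (15.8% rose). Libraries of E7 and C57 grafts did not overlap for 9 of 9 members at day 28, where 53.2% of all genes did so, and for 6 of 9 at day 14, where 47.2% did. Cell type markers moved with the E7 label as well. Of 6 dermal fibroblast markers, 5 fell at day 28 (summed 12670 to 18690 CPM in E7 grafts, against 19695 to 36968 CPM in C57 grafts) and 4 at day 14 (16092 to 25489 CPM, against 30472 to 45190 CPM). Of 6 suprabasal keratinocyte markers, 3 rose at each day (34683 to 37165 CPM in E7 grafts, against 20995 to 24090 CPM in C57 grafts, at day 28, and 44611 to 85772 CPM, against 30497 to 34632 CPM, at day 14). Of 7 macrophage markers 6 fell at day 14 (544 to 912 CPM in E7 grafts, against 1299 to 2506 CPM in C57 grafts) and 0 passed at day 28. Skeletal muscle markers summed to 820 to 882 CPM in E7 grafts at day 28, against 1372 to 3251 CPM in C57 grafts. At day 14 they overlapped, with 91.8 to 607 CPM against 206 to 785 CPM. Hair matrix markers summed to 75.9 to 93.7 CPM in E7 grafts at day 28, against 97.6 to 202 CPM in C57 grafts. At day 14 they summed to 224.3 to 745.5 CPM, against 770 to 1176 CPM. The part of these markers in the results on the 9 enzymes was not tested.

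At day 28, Rrm2 had 121, 145 and 114 CPM in E7 grafts, against 18.0, 22.0 and 16.6 CPM in C57 grafts (2.76 ± 0.28, adjusted p = 5.52e-06). At day 14 it had 162, 156 and 176 CPM in E7 grafts, against 32.9, 35.9 and 31.9 CPM in C57 grafts (2.31 ± 0.26, adjusted p = 5.42e-05). Rrm2 was the most changed of the 9 genes at both days, as it was in ear. Rrm1 had 150.0, 182 and 191 CPM in E7 grafts at day 28, against 49.3, 54.2 and 51.8 CPM in C57 grafts (1.77 ± 0.15, adjusted p = 9.29e-07). At day 14 Rrm1 had 224, 244 and 223 CPM in E7 grafts, against 94.2, 89.0 and 84.1 CPM in C57 grafts (1.38 ± 0.15, adjusted p = 2.15e-05). For both subunits, the libraries of day 28 lay below those of day 14 in E7 and in C57 grafts. Rrm2b had 16.1, 17.2 and 17.0 CPM in E7 grafts at day 28, against 19.3, 22.4 and 19.1 CPM in C57 grafts (-0.25 ± 0.10, adjusted p = 0.0677). It would be called lower with RLE or upper quartile normalization or with all libraries in 1 fit. At day 14 it had 14.3, 13.7 and 14.4 CPM in E7 grafts, against 14.2, 16.4 and 13.1 CPM in C57 grafts (-0.03 ± 0.11, adjusted p = 0.903), and the groups overlapped.

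Tyms had 24.3, 25.0 and 23.1 CPM in E7 grafts at day 28, against 8.78, 7.00 and 7.54 CPM in C57 grafts (1.64 ± 0.14, adjusted p = 6.27e-07). At day 14 Tyms had 22.1, 24.5 and 24.1 CPM in E7 grafts, against 13.9, 14.5 and 13.4 CPM in C57 grafts (0.78 ± 0.13, adjusted p = 0.00056). Its E7 libraries of the 2 days overlapped, and its C57 libraries did not. Tk1 had 27.2, 31.0 and 26.0 CPM in E7 grafts at day 28, against 11.9, 12.5 and 13.7 CPM in C57 grafts (1.17 ± 0.11, adjusted p = 2.47e-06). At day 14 Tk1 had 30.3, 34.0 and 28.5 CPM in E7 grafts, against 24.5, 24.7 and 20.1 CPM in C57 grafts (0.44 ± 0.11, adjusted p = 0.0073). Tk1 followed the pattern of Tyms, with its day 14 groups separate by a small gap. Dut differed by 0.79 ± 0.10 at day 28 and 0.60 ± 0.09 at day 14. Dck differed by 1.14 ± 0.10 at day 28 and 1.04 ± 0.10 at day 14, with an adjusted p of 7.22e-06 or lower. Cad differed by 0.24 ± 0.10 at day 28 (adjusted p = 0.0648, and called with only these groups fitted) and 0.23 ± 0.10 at day 14 (adjusted p = 0.0761). Umps differed by 0.22 ± 0.10 at day 28 (adjusted p = 0.0926) and 0.04 ± 0.10 at day 14 (adjusted p = 0.759).

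**Figure D2:**
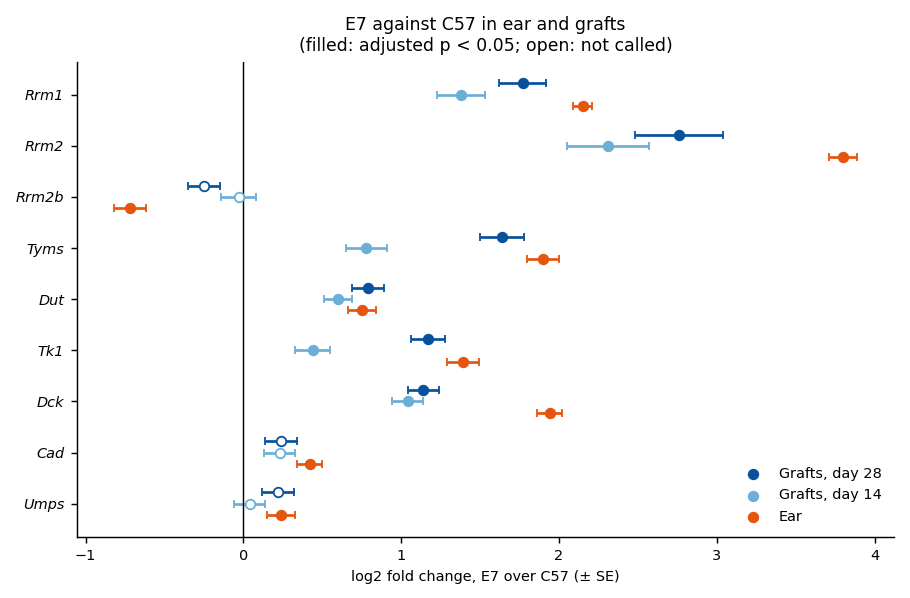
Log2 fold change of E7 over C57 (horizontal axis, ± SE) for each gene in day 28 grafts, day 14 grafts and ear, filled where adjusted p was below 0.05. Rrm2 lies furthest right in each, at 2.76, 2.31 and 3.80, and Rrm2b is called lower in ear at -0.72.

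The differences between E7 and C57 skin were themselves compared between settings. Between day 28 and day 14 grafts, 0 of 9 genes passed (0.167% of all genes did), with 2 genes, Tk1 and Tyms, at an unadjusted p below 0.05 in edgeR and 2 called by DESeq2. For Tyms the difference was larger at day 28 by 0.87 ± 0.19, and for Tk1 by 0.73 ± 0.16, each with an adjusted p of 0.082. Both were called with DESeq2 and with all libraries in 1 fit, and Tk1 also without replicate 3 of the day 14 C57 grafts. Between day 14 grafts and ear, 6 of 9 genes passed, where 12.6% of all genes did, 8.61% on the lower side. The E7 difference was smaller in day 14 grafts for Rrm2 (-1.51 ± 0.33), Tyms (-1.13 ± 0.16), Tk1 (-0.97 ± 0.15), Dck (-0.92 ± 0.13) and Rrm1 (-0.78 ± 0.18), and that of Rrm2b was less negative (0.68 ± 0.14). From ear to day 14 grafts, Rrm2 rose in C57 skin (1.09 ± 0.25) and was not called in E7 skin (-0.41 ± 0.22). Dck likewise rose in C57 skin (0.94 ± 0.09) and was not called in E7 skin (0.02 ± 0.09). Between day 28 grafts and ear 2 of 9 passed, where 7.43% of all genes did. They were Dck (-0.82 ± 0.13, adjusted p = 0.000812) and Rrm2b (0.45 ± 0.14, adjusted p = 0.0489). The Rrm2b call held in 2 of 12 fits that left out a library, and with no filter on low counts it was lost. For Rrm2 the difference was smaller in day 28 grafts than in ear by -1.06 ± 0.34, with an adjusted p of 0.0618, and it was called with DESeq2 and with only the groups compared.

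Levels in C57 skin changed too. In C57 grafts, 8 of 9 genes differed between day 28 and day 14 (22.6% of all genes did, 14.2% lower): 7 were lower at day 28, Umps was not called, and Rrm2b was higher. Tk1 had 11.9, 12.5 and 13.7 CPM at day 28, against 24.5, 24.7 and 20.1 CPM at day 14 (-0.85 ± 0.11, adjusted p = 0.000157). Tyms differed by -0.82 ± 0.14, Rrm1 by -0.77 ± 0.15, Cad by -0.50 ± 0.10, Dck by -0.40 ± 0.10 and Dut by -0.36 ± 0.10. Rrm2b had 19.3, 22.4 and 19.1 CPM at day 28, against 14.2, 16.4 and 13.1 CPM at day 14 (0.49 ± 0.10, adjusted p = 0.00349). The small subunits thus moved in opposite directions. The Rrm2 call (-0.82 ± 0.28, adjusted p = 0.0452) was lost in all 6 fits that left out a library and with RLE or upper quartile normalization or no filter on low counts. The Dut call was lost in 3 of 6, with upper quartile normalization and with only these libraries fitted. Hair matrix markers (7 genes) summed to 97.6 to 202 CPM in C57 grafts at day 28, against 770 to 1176 CPM at day 14. Suprabasal keratinocyte markers summed to 20995 to 24090 CPM at day 28, against 30497 to 34632 CPM at day 14. Skeletal muscle markers went the other way, with 1372 to 3251 CPM at day 28, against 206 to 785 CPM at day 14. The part of these markers in the results was not tested.

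Set against C57 ear, 9 of 9 genes differed in day 14 C57 grafts, where 52.6% of all genes did and 30.6% rose. The 8 others rose and Rrm2b fell (-0.93 ± 0.10, adjusted p = 1.93e-07). Rrm2 rose by 1.09 ± 0.25, Dck by 0.94 ± 0.09, Tyms by 0.80 ± 0.12 and Cad by 0.79 ± 0.09. The Dut call (0.30 ± 0.09) held in 4 of 6 fits that left out a library, and in 3 of 6 other alternatives. At day 28, 3 of 9 differed from C57 ear, where 39.2% of all genes did: Dck (0.53 ± 0.09) and Cad (0.28 ± 0.09) were higher and Rrm2b was lower (-0.45 ± 0.09). The Cad call held in 2 of 6 fits that left out a library. Values of Rrm2 in day 28 C57 grafts and C57 ear overlapped (0.26 ± 0.25, adjusted p = 0.44). Cell type markers differed between C57 grafts and ear too. Hair matrix markers summed to 770 to 1176 CPM in day 14 grafts, against 58.69 to 63.05 CPM in ear. Skeletal muscle markers summed to 206 to 785 CPM at day 14, against 2715 to 5074 CPM in ear. Dermal fibroblast markers summed to 30472 to 45190 CPM at day 14 and 19695 to 36968 CPM at day 28, against 7993 to 8874 CPM. The part of these markers was not tested.

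In E7 grafts 2 of 9 genes differed between day 28 and day 14, where 17.2% of all genes did, 9.48% lower. Cad had 66.4, 58.6 and 62.2 CPM at day 28, against 96.0, 93.6 and 77.1 CPM at day 14 (-0.49 ± 0.10, adjusted p = 0.00412). Dck was lower at day 28 as well (-0.30 ± 0.10, adjusted p = 0.0421), a call that was lost in all 6 fits that left out a library. Rrm1 (-0.39 ± 0.14, adjusted p = 0.0743) and Rrm2 (-0.37 ± 0.25, adjusted p = 0.323) were called lower when only these libraries were fitted. In day 14 E7 grafts 5 of 9 genes differed from E7 ear, where 43.2% of all genes did. Cad was higher by 0.59 ± 0.09 (adjusted p = 4.15e-05), and it was higher in day 14 grafts than in ear of C57 mice too. Umps was higher (0.25 ± 0.09), and the lower genes were Tk1 (-0.35 ± 0.10), Tyms (-0.33 ± 0.11) and Rrm2b (-0.25 ± 0.10). In the 6 fits that left out a library the Tk1 and Cad calls held in all, that of Tyms in 3, that of Umps in 2 and that of Rrm2b in 1. The Rrm2b call also held in 3 of 6 other alternatives, and that of Tyms was lost with Tyms-ps summed. Without the first E7 ear library (by replicate number) or without replicate 1 of the E7 grafts, the 5 calls became 2. In day 28 E7 grafts 5 of 9 were lower than in E7 ear, where 48.1% of all genes differed and 24.2% were lower. These were Rrm2 (-0.80 ± 0.22), Rrm1 (-0.70 ± 0.13), Tk1 (-0.50 ± 0.10), Tyms (-0.30 ± 0.11) and Dck (-0.29 ± 0.09). The Tyms call held in 2 of 6 fits that left out a library and was lost with upper quartile normalization. The Dck call was lost in 1 of 6, without the second E7 ear library. In these comparisons with ear, tissue and flow cell cannot be told apart. Dermal fibroblast markers summed to 16092 to 25489 CPM in day 14 E7 grafts, against 2251 to 4398 CPM in E7 ear. At day 28 they summed to 12670 to 18690 CPM. Skeletal muscle markers summed to 91.8 to 607 CPM in day 14 E7 grafts, against 867 to 1335 CPM in E7 ear. Hair matrix markers summed to 224.3 to 745.5 CPM in day 14 E7 grafts, against 69.7 to 80.6 CPM in E7 ear. The part of these markers was not tested.

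Grafts labelled CD1dKOxE7 differed from E7 grafts at day 14. Rrm2, Rrm1, Tyms and Cad fell, 4 of 9 genes where 29.8% of all genes were called (14.8% fell), and the libraries did not overlap for 6 of 9, where 42.5% of all genes did so. Rrm2 had 73.3, 69.7 and 64.5 CPM in grafts labelled CD1dKOxE7, against 162, 156 and 176 CPM in E7 grafts (-1.26 ± 0.25, adjusted p = 0.00167). Rrm1 had 146, 140.0 and 153 CPM in grafts labelled CD1dKOxE7, against 224, 244 and 223 CPM in E7 grafts (-0.67 ± 0.14, adjusted p = 0.00262). Both subunits stood between the levels of E7 and C57 grafts of that day. Tyms had 17.2, 16.9 and 17.0 CPM in grafts labelled CD1dKOxE7, against 22.1, 24.5 and 24.1 CPM in E7 grafts (-0.48 ± 0.13, adjusted p = 0.00934). Cad had 74.7, 62.5 and 66.6 CPM in grafts labelled CD1dKOxE7, against 96.0, 93.6 and 77.1 CPM in E7 grafts (-0.40 ± 0.10, adjusted p = 0.0051). These 4 calls held in every fit that left out a library. The other 5 genes were not called: Dck at -0.17 ± 0.09, Tk1 at -0.19 ± 0.11, Dut at -0.14 ± 0.09, Umps at 0.12 ± 0.10 and Rrm2b at 0.15 ± 0.10. T cell markers (9 genes) summed to 367 to 446 CPM in these day 14 grafts labelled CD1dKOxE7, against 60.3 to 73.7 CPM in E7 grafts. Suprabasal keratinocyte markers (6 genes) summed to 13457 to 19473 CPM, against 44611 to 85772 CPM, and E7 transcript was at 20.4, 17.6 and 23.5 CPM, against 33.8, 40.6 and 38.6 CPM. Their part in the falls was not tested.

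At day 28, 0 of 9 genes passed between grafts labelled CD1dKOxE7 and E7 grafts with edgeR, where 0.210% of all genes did. DESeq2 also called 0, and 1 gene, Rrm2b, had an unadjusted p below 0.05 (-0.26 ± 0.11, adjusted p = 0.315). Rrm2 had 217, 192 and 80.8 CPM in grafts labelled CD1dKOxE7, against 121, 145 and 114 CPM in E7 grafts (0.36 ± 0.25, adjusted p = 0.579). Replicates 1 and 2 were above every E7 graft and replicate 3 was below them all. Rrm1 had 221, 224 and 135 CPM in grafts labelled CD1dKOxE7, against 150.0, 182 and 191 CPM in E7 grafts (0.14 ± 0.14, adjusted p = 0.731), in the same order. The marker sums of replicate 3, given above, stood apart with these values, and their part was not tested. Without replicate 3, Rrm2 was called higher (0.69 ± 0.11, adjusted p = 0.00864). Without it Rrm1 came to 0.35 ± 0.09 (adjusted p = 0.0522) and Dck to 0.30 ± 0.08 (adjusted p = 0.0749). Tyms was at -0.07 ± 0.13 with replicate 3 and 0.09 ± 0.10 without it.

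**Figure D3:**
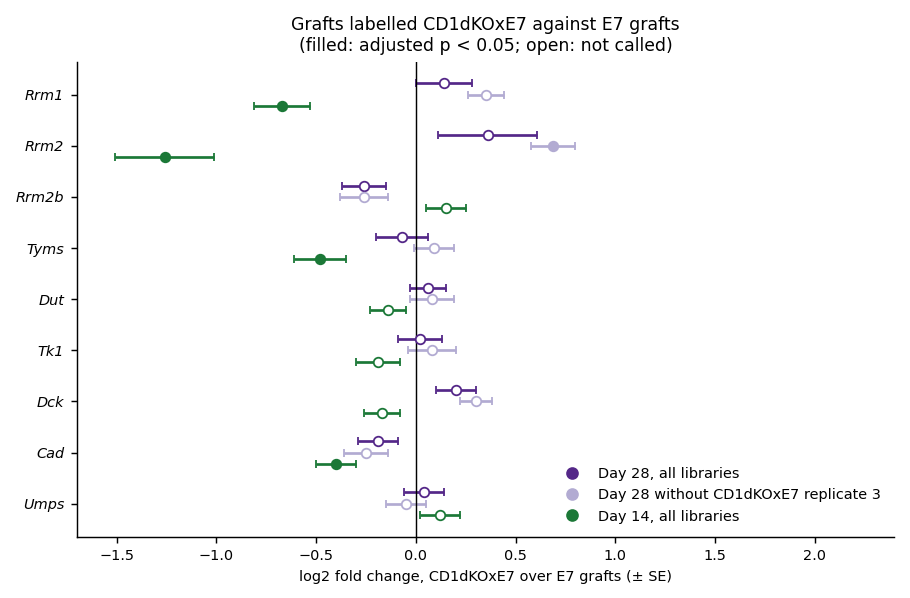
Log2 fold change of grafts labelled CD1dKOxE7 over E7 grafts (horizontal axis, ± SE) at day 28, at day 28 without replicate 3 of the grafts labelled CD1dKOxE7, and at day 14, filled where adjusted p was below 0.05. Rrm2 is at 0.36, 0.69 and -1.26.

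The 2 days differed in this contrast. For Rrm2 the difference between grafts labelled CD1dKOxE7 and E7 grafts was higher at day 28 than at day 14 by 1.62 ± 0.35 (adjusted p = 0.00952), and for Rrm1 by 0.81 ± 0.20 (adjusted p = 0.0183). These were 2 of 9 genes, where 12.8% of all genes passed, 6.54% on the higher side. The Rrm1 call was lost without replicate 1 or without replicate 2 of the day 28 grafts labelled CD1dKOxE7, with adjusted p up to 0.0569. Without replicate 3 the difference was 1.95 ± 0.15 for Rrm2 and 1.01 ± 0.12 for Rrm1, and Tyms (0.57 ± 0.13) and Dck (0.47 ± 0.11) passed as well. Within grafts labelled CD1dKOxE7, 4 of 9 genes differed between day 28 and day 14, where 22.6% of all genes did. Rrm2 rose by 1.25 ± 0.25 (adjusted p = 0.003), Tyms by 0.45 ± 0.13 and Rrm1 by 0.42 ± 0.14 (adjusted p = 0.0482), while Cad was lower (-0.28 ± 0.10, adjusted p = 0.0445). Without replicate 3 of day 28 the values were 1.58 ± 0.11 for Rrm2, 0.62 ± 0.10 for Tyms, 0.63 ± 0.09 for Rrm1 and -0.34 ± 0.11 for Cad, all called. The Rrm1 call held in 1, the Cad call in 2 and the Tyms call in 4 of 6 fits that left out a library, the Rrm2 call in all 6. With only these 6 libraries fitted the 4 calls were lost, and the adjusted p of Rrm2 was 0.0701. Between these days all 9 T cell markers fell (77.1 to 180.6 CPM at day 28, against 367 to 446 CPM at day 14) and 5 of 6 suprabasal keratinocyte markers rose (21700 to 44997 CPM, against 13457 to 19473 CPM), and their part was not tested.

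Grafts labelled CD1dKOxE7 were also set against C57 grafts, the same C57 libraries that E7 grafts were set against. At day 28, 8 of 9 genes differed, where 49.4% of all genes did and 26.8% rose: 7 rose and Rrm2b fell (-0.51 ± 0.10, adjusted p = 0.000872). Rrm2 differed by 3.12 ± 0.28, and by 3.45 ± 0.12 without replicate 3. Rrm1 differed by 1.91 ± 0.15 (2.12 ± 0.09 without replicate 3), Tyms by 1.57 (1.73 without it), Dck by 1.34 (1.45), Tk1 by 1.18 (1.25) and Dut by 0.85 (0.88). Rrm2b was at -0.51 ± 0.12 without it. The Umps call (0.26 ± 0.10, adjusted p = 0.0405) held in 2 of 6 fits that left out a library and in 2 of 8 other alternatives. Rrm2b had 15.2, 12.8 and 14.3 CPM in grafts labelled CD1dKOxE7, all below the 19.1 to 22.4 CPM of C57 grafts. Skeletal muscle markers summed to 215 to 616 CPM in these day 28 grafts, against 1372 to 3251 CPM in C57 grafts. Dermal fibroblast markers summed to 7522 to 13168 CPM, against 19695 to 36968 CPM, and T cell markers to 77.1 to 180.6 CPM, against 57.5 to 64.8 CPM. Their part was not tested. At day 14, 4 of 9 genes rose, where 39.2% of all genes were called and 19.1% rose: Rrm2 (1.05 ± 0.26), Dck (0.87 ± 0.10), Rrm1 (0.72 ± 0.15) and Dut (0.46 ± 0.09). Tyms was at 0.30 ± 0.13 (adjusted p = 0.0809, and called with all libraries or only these groups fitted) and Tk1 at 0.25 ± 0.11 (adjusted p = 0.0791). T cell markers summed to 367 to 446 CPM in the day 14 grafts labelled CD1dKOxE7, against 48.4 to 57.9 CPM in C57 grafts. Dermal fibroblast markers summed to 11816 to 13829 CPM, against 30472 to 45190 CPM, and suprabasal keratinocyte markers to 13457 to 19473 CPM, against 30497 to 34632 CPM. The part of these markers was not tested.

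The 2 small subunits of ribonucleotide reductase were also compared within each library, where the library total cancels. Per kilobase of exon, E7 ear had 27.1, 30.5 and 24.2 times as much Rrm2 as Rrm2b, against 1.03, 1.09 and 1.44 times in C57 ear. The log2 difference of the ratio was 4.53. In day 28 grafts the ratio was 29.6, 31.0 and 11.7 for the label CD1dKOxE7, 15.5, 17.5 and 13.8 for E7 and 1.95, 2.04 and 1.81 for C57. In day 14 grafts it was 9.63, 8.80 and 8.82 for CD1dKOxE7, 23.4, 23.5 and 25.5 for E7 and 4.82, 4.56 and 5.04 for C57. Per kilobase, Rrm2 was thus the more abundant small subunit transcript in all 24 libraries. The margin was least in C57 ear, where other exon lengths could reverse the order. The division used exon lengths of 2193 bases for Rrm2 and 4561 for Rrm2b, and the annotation used for counting is not given. Without division by length, Rrm2b had more reads in C57 ear (Rrm2 over Rrm2b 0.494, 0.525 and 0.692). It also had more in day 28 C57 grafts (0.935, 0.981 and 0.869). The log2 difference between E7 and C57 was 3.01 at day 28 and 2.33 at day 14, and between grafts labelled CD1dKOxE7 and E7 grafts -1.41 at day 14, with groups that did not overlap. Each of these 4 differences had an exact two-sided permutation p of 0.1, the smallest that 3 against 3 libraries allow. At day 28 grafts labelled CD1dKOxE7 and E7 grafts differed by 0.50 (exact permutation p = 0.4), and by 0.96 without replicate 3 (exact permutation p = 0.1). Rrm2 over Rrm1 per kilobase was 1.44, 1.46 and 1.34 in E7 ear, against 0.397, 0.432 and 0.513 in C57 ear. Per kilobase, the transcript of the S-phase small subunit was thus above that of the large one in E7 ear and below it in C57 ear. Without division by length, Rrm1 had more reads than Rrm2 in E7 ear too (Rrm2 over Rrm1 0.791, 0.800 and 0.733).

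**Figure D4:**
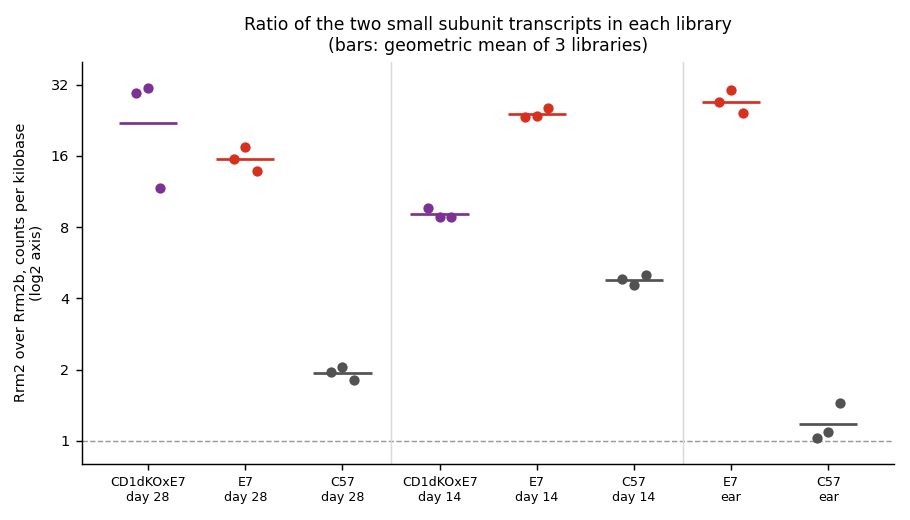
Ratio of Rrm2 to Rrm2b per kilobase of exon (log2 axis) in each library (points) with the geometric mean of 3 libraries (bars); the dashed line marks equal levels. C57 ear has the lowest ratios (1.03 to 1.44) and E7 ear 24.2 to 30.5.

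Ordered by level per kilobase of exon, Rrm2 led the 9 genes in E7 ear (100.1 ± 3.37 CPM per kilobase, SD, n = 3), ahead of Rrm1 (70.9 ± 3.17), Tk1 (27.5 ± 0.152) and Dck (23.0 ± 0.765). In C57 ear Rrm1 led (16.0 ± 0.422), ahead of Tk1 (10.4 ± 1.28), Dut (8.65 ± 0.730) and Rrm2 (7.15 ± 0.954). Rrm2b was last in E7 ear (3.69 ± 0.346) and Tyms last in C57 ear (2.52 ± 0.0785). Umps was eighth in both, at 6.16 ± 0.375 in E7 ear and 5.22 ± 0.218 in C57 ear. Across the 8 groups the highest group mean was 14.0 times the lowest for Rrm2, 5.48 times for Rrm1, 3.91 times for Dck, 3.83 times for Tyms and 3.12 times for Tk1. It was 2.01 times for Cad, 1.96 times for Rrm2b, 1.93 times for Dut and 1.54 times for Umps. Rrm2, Rrm1, Tyms and Tk1 were highest in E7 ear, and Rrm2b was highest in C57 ear. Dut, Dck and Cad had their highest mean in day 14 E7 grafts, although their libraries overlapped those of the next group, and so did Umps in day 14 grafts labelled CD1dKOxE7. At the low end, day 28 C57 grafts and C57 ear overlapped for Rrm2, Tk1, Tyms and Dut.

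The lists that follow are read beside all genes, of which 65.3% were called in ear (32.6% rose), 35.4% at day 28 (20.7% rose) and 30.2% at day 14 (15.8% rose), with medians of 0.00, 0.01 and -0.04. Among other enzymes of nucleotide metabolism, most of the folate cycle, which feeds Tyms, rose with E7. In ear 5 of 7 genes of that list rose and 1 fell (median log2 fold change 1.09, against 0.00 for all genes), with Mthfd2, a mitochondrial enzyme of the cycle, at 2.36 ± 0.13, while Mthfd1 fell (-0.24 ± 0.07). In grafts 4 of 7 rose at each day, Mthfd2 among them (1.45 ± 0.12 at day 28 and 1.11 ± 0.12 at day 14). The 13 other pyrimidine and deoxynucleotide enzymes went both ways. In ear 5 rose and 5 fell, at day 28 5 rose and 3 fell, and at day 14 3 rose and 3 fell, with medians of -0.00, 0.15 and -0.15. Uck2, which salvages uridine, and Nme1, a nucleoside diphosphate kinase, rose most in ear (1.12 ± 0.08 and 0.95 ± 0.09) and at day 28 (0.90 ± 0.16 and 0.77 ± 0.10), and both rose at day 14 (0.46 ± 0.15 and 0.40 ± 0.09). The mitochondrial salvage kinases fell: Dguok in ear (-0.71 ± 0.11) and at day 28 (-0.32 ± 0.11), and Tk2, the mitochondrial counterpart of Tk1, in ear (-0.65 ± 0.10), at day 28 (-0.43 ± 0.14) and at day 14 (-0.43 ± 0.14). Uckl1 fell at day 14 (-0.37 ± 0.10). Of the 15 purine synthesis genes, 7 rose and 1 fell in ear, 8 rose at day 28 and 6 rose at day 14 (medians 0.08, 0.24 and 0.22). Gmps, which makes GMP, was among the highest in ear (0.97 ± 0.08), at day 28 (0.77 ± 0.10) and at day 14 (0.63 ± 0.09), and Aprt, which salvages adenine, led in ear (1.08 ± 0.08), where Atic fell (-0.42 ± 0.07). Aprt also rose at day 28 (0.51 ± 0.08), and Hprt, the salvage enzyme of guanine, at day 14 (0.41 ± 0.08), level with Adsl (0.41 ± 0.08) and Pfas (0.41 ± 0.10).

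Of genes of nucleotide breakdown and hydrolysis, 7 of 11 tested rose in ear and 1 fell, 3 of 12 rose at day 28, and 3 of 12 rose and 2 fell at day 14 (medians 0.47, 0.15 and 0.06). The day 28 count is near the share of all genes. Samhd1, which degrades deoxynucleotides, had a mean of 281 CPM in E7 grafts at day 28, against 137 CPM in C57 grafts (1.06 ± 0.17). Ada, adenosine deaminase, rose by 2.27 ± 0.16 in ear, 1.68 ± 0.21 at day 28 and 1.39 ± 0.20 at day 14. Dctpp1, which hydrolyses dCTP, rose by 1.05 ± 0.15 at day 14. Uox had the largest fold in ear (4.43 ± 0.86) at a low level, with a mean of 2.87 CPM in E7 ear, against 0.115 CPM in C57 ear. Dpyd, which breaks down pyrimidines, fell in ear (-1.06 ± 0.15), and at day 14 Cda (-1.05 ± 0.38) and Nt5c (-0.28 ± 0.10) fell. A replication list of 20 genes, made of DNA replication genes and the proliferation marker Mki67, rose throughout. It had 20 of 20 higher in ear, at day 28 and at day 14, with medians of 1.98, 1.75 and 1.39. Mki67 (3.05 ± 0.16) and Mcm5 (2.73 ± 0.10) led it in ear, Mcm5 (2.67 ± 0.16) and Mcm6 (2.26 ± 0.14) at day 28, and Prim1 (2.04 ± 0.15) and Mcm5 (1.96 ± 0.15) at day 14. The medians of the 9 enzymes were 1.39, 1.14 and 0.60. Of 12 other p53 targets, set beside Rrm2b, 7 rose and 2 fell in ear, 5 rose at day 28, and 3 rose and 1 fell at day 14 (medians 0.50, 0.26 and 0.19), the last near the share of all genes called. Cdkn1a, a cell cycle inhibitor, rose most (1.32 ± 0.09 in ear, 0.83 ± 0.18 at day 28 and 0.84 ± 0.18 at day 14), and Sesn1 fell in ear (-0.55 ± 0.08) and at day 14 (-0.47 ± 0.14). Between grafts labelled CD1dKOxE7 and E7 grafts at day 14, 18 of the 20 genes of the replication list fell (median -0.56, against -0.03 for all genes). Of all genes 29.8% were called there and 14.8% fell. Counts were 1 of 7 lower for folate genes, about the share of all genes, 3 of 13 higher for other pyrimidine enzymes (median 0.03), and 5 of 12 higher and 1 lower for breakdown genes (median 0.24).

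**Figure D5:**
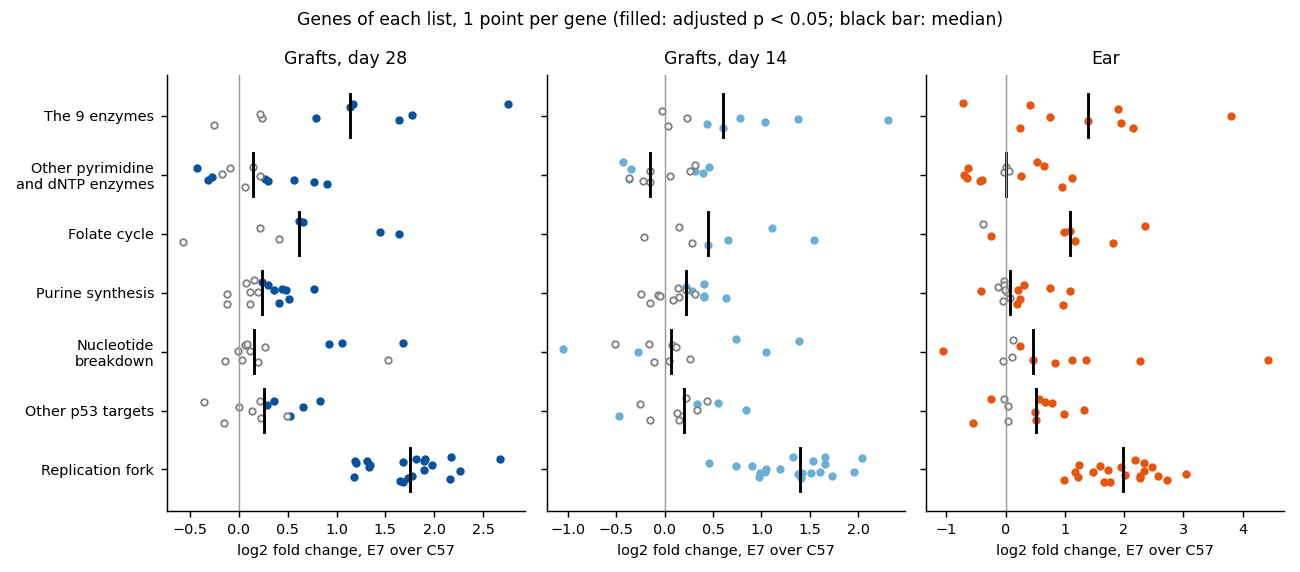
Log2 fold change of E7 over C57 (horizontal axis) for each gene (points, filled where adjusted p was below 0.05) of 7 lists in day 28 grafts, day 14 grafts and ear, with list medians (bars). The genes of the replication list, Mki67 among them, all lie right of 0, and the other pyrimidine enzymes lie on both sides.

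The genes whose log2 CPM followed a member most closely were found by the root mean square difference of centred values over the 24 libraries, among 14955 genes. For Rrm2 these were Ccne1 (0.278), Clspn (0.342) and Ccne2 (0.372), on a member whose own standard deviation was 1.44. For Tk1 they were Whsc1 (0.148), Pask (0.148) and Tmpo (0.149), for Cad Tle3 (0.141), Dcakd (0.153) and Yars (0.154), and for Rrm2b Rnpc3 (0.139), Cfl2 (0.141) and Inpp5k (0.144). Standard deviations of these 3 members were 0.53, 0.31 and 0.32. The measure favours genes that vary little where the member does, and it says nothing of shared control.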

How the data were processed

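Values were integer counts of reads per gene in 24 libraries, as deposited by the authors. Reads passed bcl2fastq 1.8.4 and Trimmomatic (ear) or FastQC and Trimmomatic (grafts) with the build mm10, per the submitters' processing notes. The TruSeq RNA v2 kit was used on total RNA, per the labels' protocols. Aligner, counter, annotation and read strand are not given in the sources used here.

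Counts were tested with edgeR 4.0.16 (R 4.3.3, limma 3.58.1): filterByExpr (minimum count 10, total 15), TMM, robust quasi-likelihood F tests, and Benjamini-Hochberg adjustment over all genes, called at 0.05. Separate fits held the 6 ear libraries (15720 genes), the 18 graft libraries (16189 genes) and all 24 (16612 genes, for grafts against ear). Groups came from the labels. Each SE was the absolute log2 fold change over the square root of F. CPM used TMM-scaled totals of all 24 libraries. Counts per kilobase used exons of GENCODE transcripts matched to RefSeq. Ratios used counts plus 0.5 and exact permutation tests. Scripts were checked on simulated counts. In no comparison of grafts did all same-numbered libraries correlate above 0.1 (range -0.33 to 0.28), so numbers were not taken as pairs.

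The members and the 21 gene lists were chosen with earlier results of these data known. All 9 members were named, with up to 2 genes each way per pathway list between E7 and C57 (1 gene that the rule selects is not reported here), and the 3 genes most like Rrm2, Tk1, Cad and Rrm2b (log2 CPM, prior count 2). Alternatives were RLE and upper quartile normalization, other filters, DESeq2 1.42.0, other sets of libraries, a replicate block, each library left out, and, chosen after seeing the data, Tyms summed with Tyms-ps. Figures were drawn with matplotlib 3.10.9 in Python 3.11.15.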

Additional observations from a re-analysis of the deposited data

Results flagged for a closer look

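The difference between E7 and C57 skin itself differed between day 14 grafts and ear for 6 genes, by the contrast of the 2 differences in edgeR. It was smaller in day 14 grafts for Rrm2 (-1.51 ± 0.33, adjusted p = 0.00529), Tyms (-1.13), Tk1 (-0.97), Dck (-0.92) and Rrm1 (-0.78), and for Rrm2b it was 0.68 higher. From ear to day 14 grafts Rrm2b differed by -0.93 ± 0.10 in C57 skin and by -0.25 ± 0.10 in E7 skin. In C57 skin Rrm2 rose by 1.09 ± 0.25, Dck by 0.94, Tyms by 0.80, Tk1 by 0.61 and Rrm1 by 0.48. In E7 skin Rrm2 (-0.41 ± 0.22), Dck (0.02) and Rrm1 (-0.30) were not called, and Tk1 (-0.35) and Tyms (-0.33) fell. That Tyms call held in 3 of 6 fits that left out a library. E7 transcript was at 33.8 to 40.6 CPM in day 14 E7 grafts, against 42.1 to 57.15 CPM in E7 ear. Its part was not tested. Between day 28 grafts and ear the difference between E7 and C57 skin differed for Dck (-0.82) and Rrm2b (0.45). The Rrm2b call held in 2 of 12 fits that left out a library and was lost with no filter on low counts. The difference between grafts labelled CD1dKOxE7 and E7 grafts was higher at day 28 than at day 14 for Rrm2 (1.62) and Rrm1 (0.81). The Rrm1 call was lost without replicate 1 or without replicate 2 of the day 28 grafts labelled CD1dKOxE7. It was also lost with only the groups compared.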

How the results depend on the processing

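Of 262 alternative counts of called members, 220 stayed within 1.5 times the main count. Of 2376 alternative fold changes of members, 2193 kept direction and side of the threshold, 108 lost the call, 31 gained one and 44 changed sign, all 44 among fold changes that were not called. With all replicates, the 2 calls between day 28 and day 14 E7 grafts became 1 with upper quartile normalization, without a filter or with the replicate block (Dck was lost in each), and 4 with only the groups compared. The 4 calls between days in grafts labelled CD1dKOxE7 became 2 without a filter and 0 with only the groups compared. The 5 calls between day 14 E7 grafts and E7 ear became 3 with DESeq2. For the E7 difference at day 28 against day 14 the 0 calls became 2 with DESeq2 or all libraries and 1 with only the groups compared. Against ear its 2 calls at day 28 became 1 without a filter and 4 with only the groups compared. For the CD1dKO difference between days the 2 calls became 1 with only the groups compared. The cause was not tested.

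Leaving out 1 library gave 0 to 1 calls between grafts labelled CD1dKOxE7 and E7 grafts at day 28 (1 without replicate 3) and 1 between days in E7 grafts. It gave 1 to 4 between days in grafts labelled CD1dKOxE7, 2 to 4 between day 14 E7 grafts and ear, 3 to 5 between day 28 E7 grafts and ear, and 0 to 1 for the E7 difference between days. It gave 1 to 2 for the E7 difference of day 28 grafts against ear, and 1 to 4 for the CD1dKO difference between days. The replicate block moved no other count of calls by over 1.5 times. In no comparison of grafts did all same-numbered libraries correlate above 0.1, a check that cannot exclude pairs.

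Sign changes in fits that left out a library spanned these values: Rrm2b, E7 against C57 at day 14, -0.10 to 0.07; Tk1, Tyms and Umps in grafts labelled CD1dKOxE7 against E7 grafts at day 28, -0.04 to 0.09, -0.17 to 0.09 and -0.05 to 0.11; Cad against C57 grafts there, -0.00 to 0.11. Dut between days in grafts labelled CD1dKOxE7 gave -0.04 to 0.11. In day 28 C57 grafts against ear, Dut gave -0.17 to 0.01 and Tyms -0.13 to 0.04. In E7 grafts against ear, Dck gave -0.03 to 0.05 at day 14 and Rrm2b -0.04 to 0.07 at day 28. The E7 difference between days gave -0.08 to 0.07 for Cad. That of day 28 grafts against ear gave -0.09 to 0.02 for Umps and -0.05 to 0.12 for Dut. Upper quartile normalization changed the sign of Tk1 (-0.01), Cad (-0.03 in both its cases), Rrm2b (0.07), Dut (0.02) and Umps (0.04). RLE, no filter, DESeq2 and only the groups compared gave -0.02 for the Cad difference between days, and 0.00, 0.00, 0.00 and 0.02 for Rrm2b. No filter gave -0.01 for Dck. Tyms with Tyms-ps gave 0.05 in the CD1dKO contrast at day 28, -0.07 between days in E7 grafts and 0.01 in day 28 C57 grafts against ear. Members had 50 to 3120 counts a library. Over all genes, libraries of 1 group differed with a chi-square per gene of 3.78 to 31.5, where counting error alone gives about 1, so that spread between libraries exceeded the limit set by depth.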
